A study of Danio rerio with 5 samples.

Results

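Interior Drl-only sites are stretches of the zebrafish genome where a peak was called in both Drl-FLAG libraries and in neither Blf-FLAG library, away from chromosome ends. Of 11333 nuclear sites in the series, 3091 (27.3%) were called for Drl only. Leaving out the outer 1 Mb of each chromosome and chromosome 4 from 30 Mb removed 352 of them, 78 on that arm of chromosome 4 and 274 elsewhere. The remaining 2739 sites made up 29.7% of the 9224 interior sites. The sites were chosen by the presence of a peak call in the 4 lists, so presence for Drl and absence for Blf define them and are not a result.

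Drl (draculin) is a zinc-finger protein of the fish lateral plate mesoderm, the sheet of embryonic tissue that gives rise to blood, vessels and heart. Its gene is widely used as an early marker of that tissue. Blf (bloody fingers) is another zinc-finger protein, known from work on the first wave of red blood cell formation. Proteins of this kind bind DNA through arrays of zinc fingers, and peaks called for only 1 of a pair are candidates for places where the pair differ in what they contact.

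The Drl-FLAG group came from zebrafish embryos labelled blf-/-;drl 4KO that received drl-Flag mRNA. The Blf-FLAG group came from the same mutant background with blf-Flag mRNA. All cells were RFP+ hematopoietic progenitors sorted at 20 hpf (hours post fertilisation), taken from embryos dissociated with Liberase and purified by FACS; how many embryos went into a library is not in the labels. The tagged proteins were supplied by injected mRNA, so no promoter restricted them to blood cells, and RFP alone marked the lineage. The genotype labels and the design text give a single tagged mRNA per library, whereas the extraction protocol names both together, so each statement on Drl against Blf rests on those labels. Each factor had 2 libraries, and 1 input library without antibody was not analysed here. The assay was CUT&Tag, in which anti-FLAG antibody bound to the tagged protein directs the Tn5 transposase to cut and tag nearby DNA. No expression was measured, so the label of the sorted cells could not be set against marker genes.

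The lists held between 5289 and 5482 peaks. Fragment counts were worked out from the fold and p-value of each peak. The genome-wide background came to an expected 0.919 fragments covering a base for Drl-FLAG and 0.313 for Blf-FLAG, a ratio of 2.94. It was the same in either list of a factor. The weakest nuclear peak had 8 fragments at its summit in each Drl-FLAG list and 4 in each Blf-FLAG list. Positions below are on GRCz11 and include the first and last base of a site, so starts are a base above the deposited ones. Gene annotation and sequence of that build were not used here, so sites are given by position and no gene is assigned to them.

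Interior Drl sites are those with a peak in both Drl-FLAG lists. Of these, 2739 of 3754 were Drl-only (73.0%, exact Clopper-Pearson 95% interval 71.5 to 74.4). Among interior Drl sites with enough fragments to reach the median Blf-FLAG peak after scaling to Blf-FLAG depth, a limit chosen after seeing the data, the share was 40.0% (36.2 to 43.9). This leaves out 18 sites with p-values too small to be read back, all with a peak in both Blf-FLAG lists. Counting them would lower the share. Of all 3754, 848 sites (22.6%, 21.3 to 24.0) had a peak in both Blf-FLAG lists, and 167 (4.45%, 3.81 to 5.16) had a peak in a single Blf-FLAG list. Intervals here and below reflect counting error alone, with each site taken as a separate draw.

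Sites just outside the definition differed from it by a single call. At the 167 sites with a single Blf-FLAG call, the Blf-FLAG peak had a median of 7 fragments and a median −log10 q of 4.30, with −log10 q values between 2.09 and 23.5. The Drl-FLAG peaks at these sites had a median of 18 fragments. Another 1068 interior sites were called in a single Drl-FLAG list and in no Blf-FLAG list. Their peaks had a median of 12 fragments and a median −log10 q of 4.04, and the highest reached 23.4. Just inside the definition, 126 of the Drl-only sites had a −log10 q under 3 in at least 1 Drl-FLAG list, and the lowest was 2.04. At the other end, 1717 had a −log10 q of at least 5 in both Drl-FLAG lists.

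The typical Drl-only site was a narrow peak of modest height. Drl-FLAG peaks at these sites had a median width of 475 bp in both lists, with an interquartile range of 381.5 to 621 bp in Drl-FLAG 1 and 380.5 to 617 bp in Drl-FLAG 2. The median of 14 fragments at the summit was the same in both lists, with 10 and 23 fragments at the 10th and 90th percentiles. The fold enrichment, here always the authors' value for the peak summit over the background the peak caller used, had a median of 6.58 in both lists. It ranged over 2.33 to 29.7 in Drl-FLAG 1 and over 2.23 to 31.1 in Drl-FLAG 2. Summits were spread over the whole peak, with quartiles at 28.2%, 47.2% and 64.2% of its width in Drl-FLAG 1 and 27.8%, 47.1% and 65.3% in Drl-FLAG 2. All but 10 sites consisted of a single peak in each list.

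Interior sites called for both factors were wider and stronger in the same Drl-FLAG lists. In Drl-FLAG 1, the median width was 475 bp (95% interval 466 to 483) at Drl-only sites and 658 bp (632 to 689) at shared sites. The median fragment count there was 14 at Drl-only sites and 20 (19 to 21) at shared sites. In Drl-FLAG 2, widths were 475 bp (467 to 482) at Drl-only sites and 650.5 bp (629 to 676) at shared sites. The highest fold in Drl-FLAG 1 was 29.7 among Drl-only sites and 110 among shared sites. Blf-only sites were likewise narrower than shared sites in Blf-FLAG 1, with medians of 429 bp (422 to 438) and 535.5 bp (518 to 555). Their median counts in that list were 7 and 9 fragments. Height and width come from the peaks that chose the sites, so these differences are a description and were not tested.

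The Drl-only share was lower in each bin of Drl sites with more fragments. Among interior Drl sites with 8 to 10 fragments, 355 of 388 were Drl-only (91.5%, 88.3 to 94.1). The share was 84.0% (81.9 to 85.9) between 10.5 and 14 fragments and 76.3% (73.5 to 78.9) between 14.5 and 19 fragments. It was 61.3% (57.5 to 65.1) between 19.5 and 29 fragments. With 29.5 fragments or more, 106 of 368 were Drl-only (28.8%, 24.2 to 33.7). These shares follow from the calls that define the sites and are a description. A further 18 sites, with p-values too small to be read back, are left out of these bins. All 18 were shared sites, so counting them would lower the share in the highest bin. The order was the same among sites at the genome-wide control background, where the share was 91.1% (87.7 to 93.9) in the lowest bin and 34.7% (25.4 to 45.0) in the highest.

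**Figure D1:**
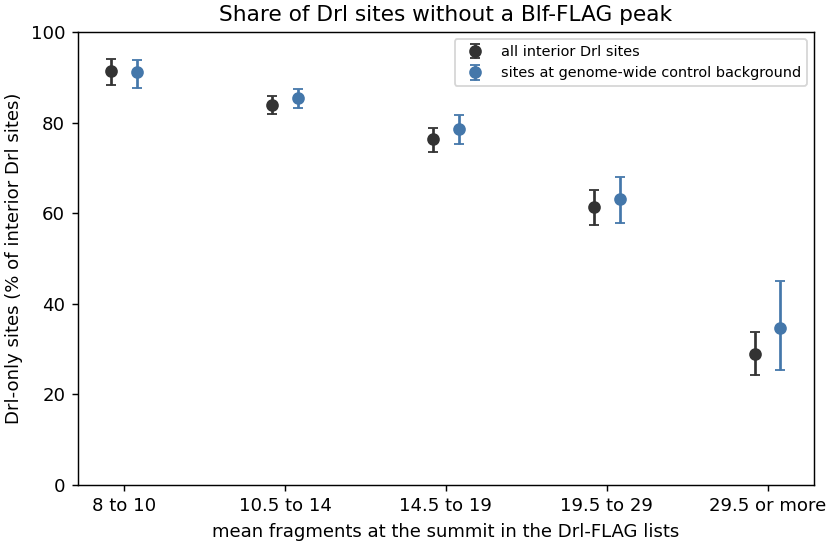
Percentage of interior Drl sites that are Drl-only (vertical axis) against mean summit fragments over Drl-FLAG 1 and 2 (horizontal axis, 5 bins), with exact 95% intervals as bars. Black points are all sites and blue points those at the genome-wide control background; the share is 91.5% in the lowest bin and 28.8% in the highest.

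Fragment counts at Drl-only sites were also set against the depth of the Blf-FLAG lists. Divided by the depth ratio of 2.94, the median Drl-only site would be expected to hold 4.77 fragments at Blf-FLAG depth. Such a scaled count is an expected value, and the spread of real counts around it was not taken into account. A site over a limit given below could thus still fall short of that limit in a Blf-FLAG library. A site needed about 11.7 Drl-FLAG fragments to equal the 4 fragments of the weakest Blf-FLAG peak. Of the Drl-only sites, 755 (27.6%, 25.9 to 29.3) had fewer. That minimum takes no account of control background, although a peak over a higher background needs more fragments to be called. The 286 Drl-only sites with a background over 2 times the genome-wide value had at least 12 fragments, so none counted as under it. With the 10th percentile of Blf-FLAG peaks as the minimum, 57.8% (56.0 to 59.7) fell under it. At 254 Drl-only sites (9.27%, 8.21 to 10.4), the scaled count reached 8, the median of Blf-FLAG peaks. These stronger sites had at least 23.5 Drl-FLAG fragments, a median site width of 622.5 bp and were found on all 25 chromosomes. Of the 254, 107 were at the genome-wide control background, 121 had a raised one, and 171 had no Blf-FLAG peak within 20 kb. The limit of 8 fragments likewise takes no account of control background. How far depth sets the Drl-only calls was not tested.

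The Drl-FLAG lists were nearly the same at these sites. Starts and ends were identical in 1085 of 2739 sites (39.6%, 37.8 to 41.5), and summits coincided to the base in 1796 (65.6%, 63.8 to 67.4). Where summits differed, the median distance was 39 bp and the largest 1040 bp. Fragment counts were equal at 1213 sites (44.3%), differed by at most 1 at 2107 sites (76.9%) and differed by over 5 at 71 sites (2.59%). The squared difference over the sum of the counts averaged 0.0912, against 1 for counts drawn separately from a Poisson distribution. Only sites called in both lists enter that value. The lists differed by less than the sampling noise and were counted as 1 sample, so nothing here has a replicate check and no p-value was computed.

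Fold enrichment also varied little between the lists. The absolute difference in log2 fold had a median of 0.07 and a 90th percentile of 0.26. The largest difference, 1.31, was at chromosome 13, 22565170 to 22565754, with folds of 9.25 in Drl-FLAG 1 and 3.73 in Drl-FLAG 2. That site had 24 fragments in Drl-FLAG 1 and 22 in Drl-FLAG 2, with summits 372 bp apart, so the fold differed far more than the count. The second largest difference was at chromosome 25, 31656370 to 31658255, with 45 fragments in Drl-FLAG 1 and 43 in Drl-FLAG 2. Its folds were 19.6 and 8.88, with summits 282 bp apart. These sites were singled out after their values were seen. Averaged over the lists, their control backgrounds were 3.52 and 2.64 times the genome-wide value. Fold divides by that background and the counts were nearly equal, so at each site the background solved for Drl-FLAG 2 was the higher.

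**Figure D2:**
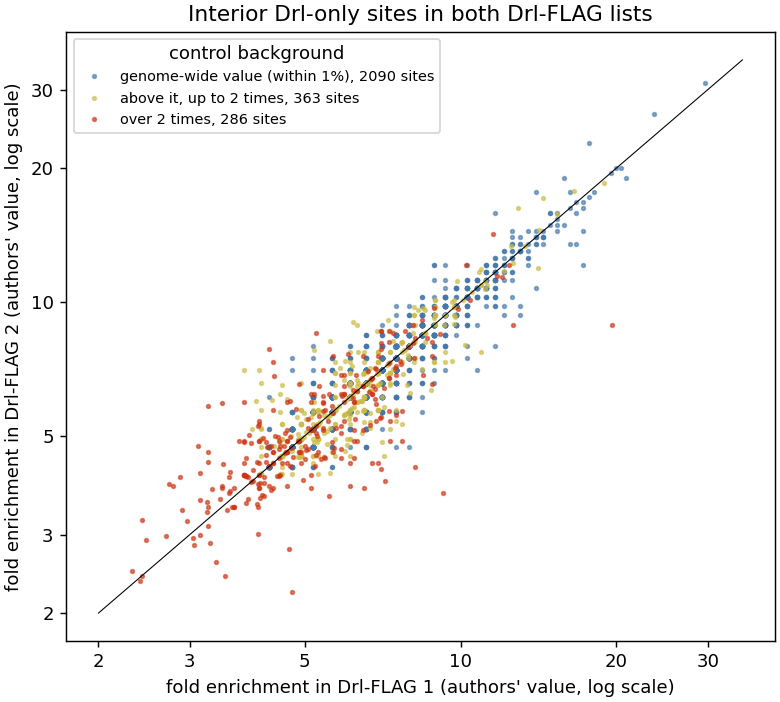
Authors' fold enrichment of the 2739 interior Drl-only sites in Drl-FLAG 1 (horizontal, log scale) and Drl-FLAG 2 (vertical, log scale), 1 point per site, with the line of equality. Blue points (2090 sites) are at the genome-wide control background, yellow points (363) above it by up to 2 times, and red points (286) over 2 times; in Drl-FLAG 1 red points reach down to a fold of 2.33 and blue points to 4.27.

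Control background is the local level of fragments against which the peak caller judged a peak. Its value for a site is the mean over the lists of the factor, so a high value in a single list can raise it. It was at the genome-wide value, within 1%, at 2090 Drl-only sites (76.3%, 74.7 to 77.9). It was over 2 times that value, here called raised, at 286 sites (10.4%, 9.32 to 11.6), over 5 times at 68 sites (2.48%) and over 10 times at 26 sites (0.949%). By the same Drl-FLAG values, it was raised at 234 of the 830 interior shared sites with a read value (28.2%, 25.2 to 31.4). Interior Blf-only sites, judged on their own Blf-FLAG background, were raised in 515 of 1984 cases (26.0%, 24.0 to 27.9). By those Blf-FLAG values, interior shared sites were raised in 237 of 842 cases with a read value (28.1%, 25.1 to 31.3). These classes are defined by the calls, each factor is 1 sample, and Drl-FLAG and Blf-FLAG values rest on different depths, so the shares are set side by side as a description. The part of the control in the Drl-only calls was not tested.

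Raised background went with many fragments at a low fold. Both follow in part from the peak calling, since a higher background demands more fragments and fold divides by that background. The 286 sites had a median of 22 fragments in both lists and median folds of 5.03 in Drl-FLAG 1 and 4.87 in Drl-FLAG 2. Sites at the genome-wide background had a median of 13 fragments and a fold of 6.58 in both lists. The site with the most fragments of all, chromosome 2, 14005761 to 14006088, had 477 fragments in Drl-FLAG 1 and 454 in Drl-FLAG 2. Its folds were 3.15 in Drl-FLAG 1 and 2.99 in Drl-FLAG 2, since its control background was 164 times the genome-wide value. Across all 2739 sites, mean fragments over the lists and the fold in Drl-FLAG 1 had a Spearman correlation of 0.70. The points share libraries and depth, and fold is computed from the same fragments. Among the 2090 sites at genome-wide background, fragments and site width had a Spearman correlation of 0.35.

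The strongest Drl-only sites by rank of fold are named here, 25 in all. They lay on 16 chromosomes, held 32 to 64.5 fragments on average over the lists, and had folds between 13.97 and 29.7 in Drl-FLAG 1 and between 14.4 and 31.1 in Drl-FLAG 2. Scaled to the Blf-FLAG depth, they would be expected to hold 10.9 to 22.0 fragments, all above the median Blf-FLAG peak of 8. None of the 25 had a raised control background, the highest being 1.45 times the genome-wide value, and 21 were at that value. Fold divides by that background, so a raised background lowers the rank by construction. Their summits were at the same base in both lists at 20 of 25 sites. Their median width was 953 bp, with a range of 338 to 1541 bp.

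The highest-ranked site was at chromosome 25, 20380663 to 20381932. It had 63 fragments in Drl-FLAG 1 and 66 in Drl-FLAG 2, with folds of 29.7 in Drl-FLAG 1 and 31.1 in Drl-FLAG 2. A second Drl-only site began within a few kilobases of it, at 20384251 to 20384763, with 14 fragments in each list. The nearest Blf-FLAG peak was 119444 bp away. The second-ranked site, chromosome 9, 54621652 to 54622093, was narrow, at 442 bp, and had 50 fragments in Drl-FLAG 1 and 56 in Drl-FLAG 2. It was 2437609 bp from the next Drl-only site, yet only 934 bp from a Blf-FLAG peak. No other of the 25 sites had a Blf-FLAG peak within 1 kb.

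Chromosome 22, 4751465 to 4752446, was next in rank with 43 fragments in Drl-FLAG 1 and 42 in Drl-FLAG 2. After it came chromosome 11, 21800308 to 21801434, which had 44 and 40 fragments and lay 422621 bp from the nearest Blf-FLAG peak. Chromosome 14, 21140087 to 21141039, had 42 fragments in each list. These sites differ in their surroundings, since the chromosome 14 site had a Blf-FLAG peak 4384 bp away. Chromosome 24, 29683404 to 29684415, had 41 fragments in each list, and its nearest Blf-FLAG peak was 6665 bp away. Chromosome 13, 49444620 to 49445793, differed most between the lists among the 25, with 37 fragments in Drl-FLAG 1 and 48 in Drl-FLAG 2. Its folds were 17.7 in Drl-FLAG 1 and 22.7 in Drl-FLAG 2.

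Chromosome 25 held 2 more of the 25 sites. The site at 23052252 to 23053187 had 46 and 45 fragments in the 2 Drl-FLAG lists, at a control background of 1.36 times the genome-wide value. The site at 17613147 to 17613908 had 38 and 37 fragments. It had a weaker Drl-only neighbour at 17611998 to 17612305, with 9 fragments in each list and centres 1376 bp apart. Chromosome 1 also held 3 of the sites. Those at 19673393 to 19674038, 18859329 to 18859783 and 28388551 to 28389056 had mean counts of 36.5, 35.5 and 37.5 fragments. None of the 3 had another Drl-only site within 20 kb or a Blf-FLAG peak within 20 kb.

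The other ranked sites were spread over the genome and were close to each other in height. Chromosome 13, 10437729 to 10438268, averaged 41.5 fragments, and chromosome 2, 15833017 to 15833524, averaged 39.5 fragments. Chromosome 16, 39131621 to 39131982, was 362 bp wide and had 33 fragments in Drl-FLAG 1 and 40 in Drl-FLAG 2. Chromosome 7, 56793531 to 56794858, averaged 35.5 fragments over a width of 1328 bp. Chromosome 18, 21950977 to 21952236, had 35 fragments in each list. Chromosome 3, 43649328 to 43650462, averaged 35 fragments and was 1181646.5 bp from the next Drl-only site.

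A second site on chromosome 2, 21746634 to 21747658, had 34 fragments in each list and a Drl-only neighbour of 11.5 fragments at 21742406 to 21742959. Chromosome 4, 9028785 to 9029688, on the part of that chromosome kept here, averaged 34 fragments. Its Drl-only neighbour at 9030716 to 9031580 averaged 13 fragments, with centres 1911.5 bp apart. Chromosome 14, 49151826 to 49153000, averaged 32.5 fragments. Chromosome 23, 14602620 to 14602957, was the narrowest of the 25 at 338 bp, with 36 fragments in Drl-FLAG 1 and 30 in Drl-FLAG 2. Chromosome 8 held the sites at 23658160 to 23659152 and 26867306 to 26868846, with 33 and 32 fragments on average, the second being the widest of the 25 at 1541 bp. Chromosome 16, 22156052 to 22156426, averaged 32 fragments. In all, 7 of the 25 sites had another Drl-only site within 20 kb, and 5 had a Blf-FLAG peak within 20 kb.

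At the low end of the ranking the sites had many fragments and high control background. The ranking by fold sets this in part, since fold divides by that background. The lowest-ranked site was on chromosome 5, 61895079 to 61895573, with 49 fragments in Drl-FLAG 1 and 48 in Drl-FLAG 2 at folds of 2.41 and 2.36. Its control background was 21.4 times the genome-wide value. The next lowest lay beside it at 61895963 to 61896592, with 43 and 46 fragments. Both belonged to a group of 4 Drl-only sites between 61895079 and 61905834, all with raised background, whose nearest Blf-FLAG peak was 78357 bp away. The others of the 5 lowest were on chromosome 2, 39671890 to 39672249, chromosome 8, 34727448 to 34727836, and chromosome 5, 62829006 to 62829429. Their mean counts were 36.5, 45.5 and 25 fragments, and their control background was 15.6, 17.6 and 8.81 times the genome-wide value.

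The widest Drl-only site was at chromosome 3, 27606679 to 27609329, a span of 2651 bp. That span was a single peak in Drl-FLAG 1, while Drl-FLAG 2 had 2 peaks there, the strongest 1344 bp wide. The site had 28 fragments in Drl-FLAG 1 and 30 in Drl-FLAG 2, at folds of 13.5 and 14.4. Width did not go with a raised background there, which was at the genome-wide value.

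Density was compared along chromosomes, a feature the definition used only through its margins. Interior Drl-only sites averaged 2.196 per Mb over 1247 Mb, shared sites 0.680 and Blf-only sites 1.59. By chromosome, Drl-only density ran from 1.67 per Mb on chromosome 24 (67 sites) to 2.65 on chromosome 23 (117 sites). Chromosome 3 (2.57), chromosome 1 (2.52) and chromosome 16 (2.498) followed chromosome 23. Shared sites varied over a wider relative range, from 0.382 per Mb on chromosome 12 (18 sites) to 1.34 on chromosome 8 (70 sites). Of those 70, 32 lay between 34 and 35 Mb. Shared sites were fewer than Drl-only sites on each chromosome, and counting error is relatively larger for smaller counts. Blf-only sites ran from 1.19 per Mb on chromosome 5 to 2.22 on chromosome 15. On every chromosome the interior held more Drl-only than Blf-only sites. With 1 sample per factor and lists of unequal depth, these differences were not tested. The share of Drl-only sites with raised control background ran from 4.49% on chromosome 18 to 23.1% on chromosome 15. Counting only sites at the genome-wide background, density was highest on chromosome 23 (2.10 per Mb) and chromosome 3 (2.09), and lowest on chromosome 24 (1.22).

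**Figure D3:**
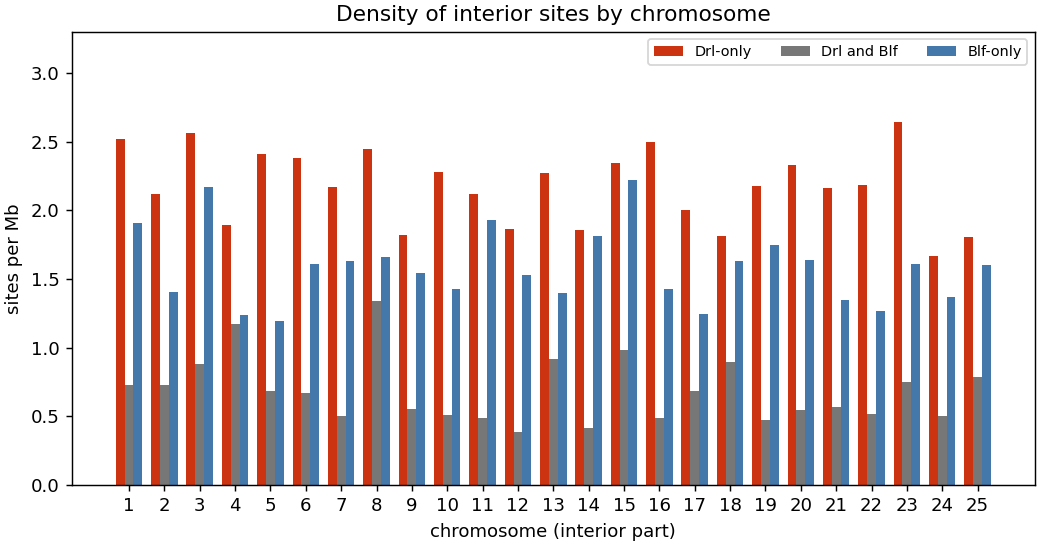
Interior sites per Mb (vertical axis) on each of the 25 chromosomes (horizontal axis), with Drl-only sites in red, sites of both factors in grey and Blf-only sites in blue. Red bars run from 1.67 on chromosome 24 to 2.65 on chromosome 23, and each stands above the blue bar of its chromosome.

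The number of Drl-only sites varied along the chromosomes. Of 1237 whole interior 1-Mb stretches, 221 held none, the median was 2 and the mean 2.19. The 75 stretches with at least 6 sites held 543 of them. The richest were chromosome 16 from 36 to 37 Mb and chromosome 3 from 23 to 24 Mb, with 20 sites each. They differed in control background, which was raised at 12 of the 20 sites on chromosome 16 and at none of the 20 on chromosome 3. The chromosome 16 stretch also held 4 shared and 2 Blf-only sites, and the chromosome 3 stretch 3 shared and 1 Blf-only site. Chromosome 8 from 34 to 35 Mb had 13 Drl-only sites, 9 of them with raised background, among 32 shared sites.

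Several other rich stretches had little raised background. Chromosome 5 from 36 to 37 Mb held 12 Drl-only sites, 1 of them raised, with a single shared and a single Blf-only site. Chromosome 17 from 24 to 25 Mb held 10, none raised, with counts of 11 to 16 fragments. On chromosome 7, the stretches from 21, 24 and 29 Mb held 9 each, with raised background at a single site, in the first of them. In the last of these stretches no shared site was found. Chromosome 15 from 9 to 10 Mb also held 9 Drl-only sites, but with 25 Blf-only and 9 shared sites and a raised background at 6 of the 9.

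Spacing between Drl-only sites showed a close tail. The median distance from the centre of a site to the nearest other was 99230 bp, and the lower quartile was 26350 bp. At 625 sites (22.8%, 21.3 to 24.4) another lay within 20 kb, and at 106 sites (3.87%) within 2 kb. The closest pair was on chromosome 5, at 19932679 to 19933127 and 19933468 to 19933781, with centres 721.5 bp apart and means of 15.5 and 9.5 fragments. Shared sites had another of their class within 20 kb in 23.6% of cases (20.8 to 26.6) and Blf-only sites in 15.3% (13.8 to 17.0), although both classes were sparser. A neighbour within 20 kb was found for 32.2% (26.8 to 37.9) of the Drl-only sites with raised background and for 21.0% (19.3 to 22.8) of those at the genome-wide value.

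Blf-FLAG peaks were also near some Drl-only sites. The median gap from the edge of a Drl-only site to the nearest Blf-FLAG peak of either list was 71953 bp. A Blf-FLAG peak lay within 20 kb of 653 sites (23.8%, 22.3 to 25.5), within 1 kb of 77 sites (2.81%) and within 100 bp of 12 sites (0.438%). These last sites were Drl-only through the requirement of 1 bp of overlap. Among sites with raised background, 25.2% (20.3 to 30.6) had a Blf-FLAG peak within 5 kb, compared with 7.56% (6.46 to 8.78) of those at the genome-wide value. The median gap to the nearest shared site, which itself holds Blf-FLAG peaks, was 487750 bp.

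**Figure D4:**
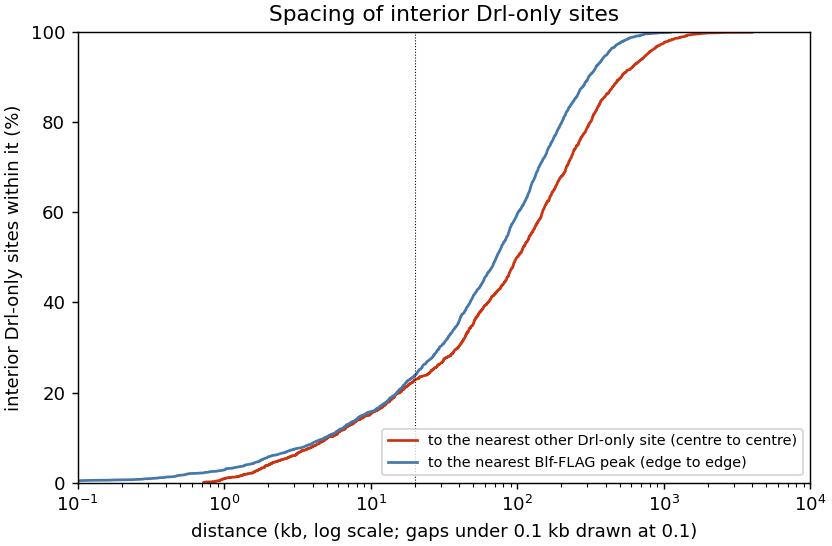
Cumulative percentage of the 2739 interior Drl-only sites (vertical axis) with a neighbour within a given distance (horizontal axis, kb, log scale). The red curve is the nearest other Drl-only site, centre to centre, and the blue curve the nearest Blf-FLAG peak, edge to edge; at the dotted line of 20 kb they reach 22.8% and 23.8%.

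Joined at 20 kb, 2114 sites stood alone and 237 pairs were formed, with 26 groups of 3, 10 of 4 and 1 of 5. The largest groups held 7 sites, and 4 groups tied at that size. The densest was on chromosome 3 from 23558844 to 23580250, with 7 sites in 21407 bp. Its sites had 10.5 to 24.5 fragments, and folds between 5.66 and 12.6 in Drl-FLAG 1 and between 5.19 and 11.2 in Drl-FLAG 2. No control background was raised, and the nearest Blf-FLAG peak was 16044 bp from a site of the group. The first and last sites of the group were not alike, with 14 and 24.5 fragments, the last being its strongest.

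A second group of 7 lay on the same chromosome from 23699931 to 23728057. Its sites had 10 to 25 fragments, with folds of 5.19 to 12.6 in Drl-FLAG 1 and 5.19 to 11.7 in Drl-FLAG 2, and none was raised. No shared or Blf-only site lay inside either group on chromosome 3, and the median spacing of sites was 3425.5 bp in the first and 4223.25 bp in the second. The strongest site was the first of its group here, with 26 fragments in Drl-FLAG 1 and 24 in Drl-FLAG 2.

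The other groups of 7 had a raised control background at most of their sites. On chromosome 15 from 16474594 to 16507247 it was raised at 4 of 7 sites. All 7 sites of that group together ranged over 14.5 to 28 fragments. The nearest Blf-FLAG peak was 1167 bp from a site there. On chromosome 16 from 36414350 to 36452586 the control background was raised at 5 of 7 sites, with 2 shared sites inside the group. All 7 sites there together ranged over 15 to 55 fragments. The group of 5, on chromosome 16 from 14420597 to 14444821, was even in height at 14 to 16 fragments, with none raised and no shared or Blf-only site inside.

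**Figure D5:**
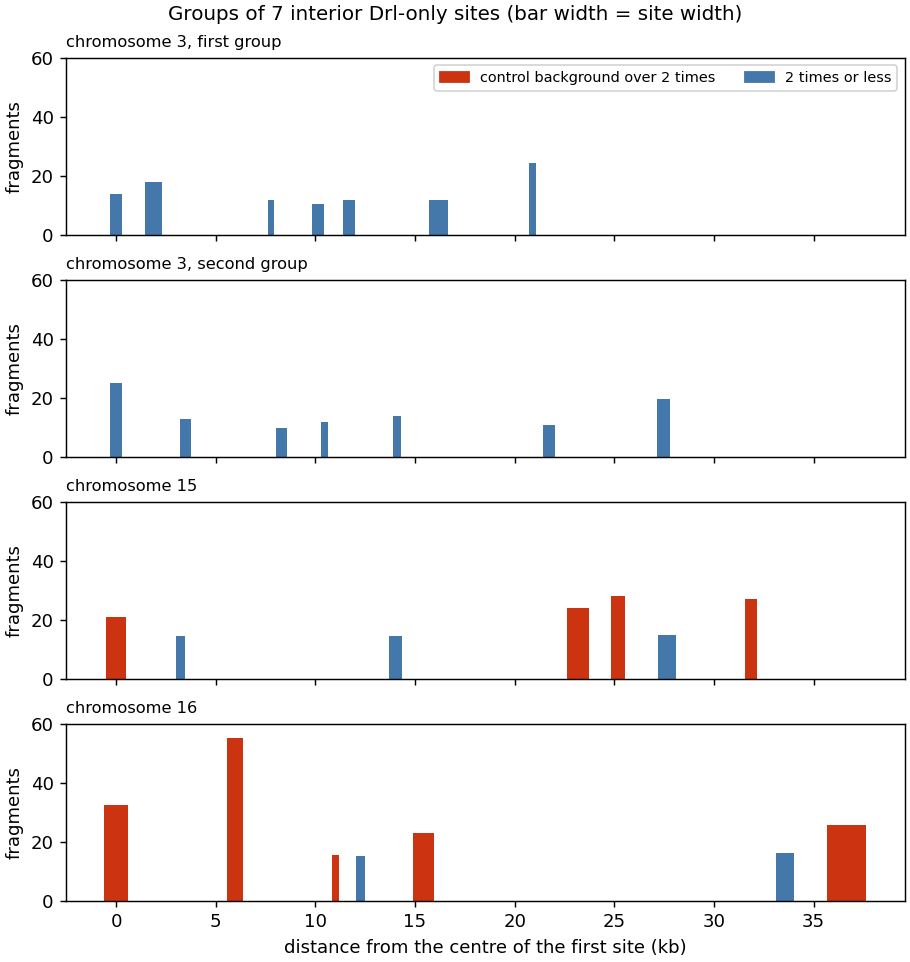
The 4 groups of 7 interior Drl-only sites, 1 panel each, with the mean number of fragments over the 2 Drl-FLAG lists (vertical axis) against distance from the centre of the first site in kb (horizontal axis). Bar width is the site width; red bars have a control background over 2 times the genome-wide value, which holds for none of the sites in both groups on chromosome 3, 4 on chromosome 15 and 5 on chromosome 16.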

How the data were processed

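Per the submitters' processing notes, CUT&Tag libraries were processed with bcl2fastq, bedtools 2.30.0, Bowtie2 2.4.2, FastQC 0.11.9, MACS2, Picard 2.26.1 and SAMtools 1.10, on GRCz11. Settings not given in the sources used here include the control. Each deposited anti-FLAG list gives a peak's display score, its fold enrichment (a ratio), its summit offset, and p- and q-values as −log10. The authors' fold was used only within a list.

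Fragments and control background at each summit were solved from fold and p-value, assuming Poisson p-values and a pseudocount of 1 in the fold. Whole fragments had to match within 0.05%, which read 99.4% to 99.8% of nuclear peaks; a second match existed for 4.07% to 5.07%, and the closest was taken. Peaks with a −log10 p of 290 or more stayed unread. These are inferred counts, tested on simulated data made with the same formulas.

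Nuclear peaks overlapping by 1 bp or more were joined, and the strongest peak per list stood for its site. Sites were named by fixed rules: the 25 highest and 5 lowest by mean percentile of fold in the Drl-FLAG lists, the groups with most members at 20 kb, and the widest. Site classes and rules were chosen with earlier results of these data known. Planned gene and motif descriptions were not run for want of annotation and sequence of the build. Python 3.11.15 with scipy 1.17.1 was used.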

Additional observations from a re-analysis of the deposited data

How the results depend on the processing

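Of 89 alternative values for 6 results, 45 stayed near the value reported and 44 moved outside. Near meant within 1.5 times for the number of sites and within the 95% interval for the other results. These limits are unlike, and some settings change the quantity itself, such as the distance to a neighbour. The tally is therefore no measure of how stable the results are. With a −log10 q of at least 5 in all lists, the Drl-only share of interior Drl sites was 77.9%, the median Drl-FLAG width 528 bp and the share with another site within 20 kb 18.4%. At shared sites, the lower quartile of −log10 q was 4.30 in each Blf-FLAG list and 6.16 in each Drl-FLAG list. A limit of 5 thus removed more Blf-FLAG than Drl-FLAG calls there, and a Drl site that loses its Blf-FLAG calls counts as Drl-only. With that threshold on the Drl-FLAG lists only, 1717 sites remained, at 67.9%, 513 bp, 8.85% with raised background and 16.5% with a neighbour. With 2000 peaks per list, 1040 sites were found, at 598.5 bp, 8.37% raised and 12.02% with a neighbour. The Drl-only share at that setting was 73.7%, within the interval of the value reported. A reciprocal overlap of 50% gave a Drl-only share of 79.0% and a width of 484 bp. Asking for no Blf-FLAG peak within 1 kb gave 70.9%. That share was still taken of all 3754 interior Drl sites, so its fall is the removal of 77 sites alone. With no margin and the long arm of chromosome 4 kept, the share was 69.4% and 13.2% were raised. Raised background was found at 13.0% of sites over 1.5 times and at 5.002% over 3 times the genome-wide value. A neighbour lay within 10 kb of 15.4% and within 50 kb of 35.2%. With the 10th percentile of Blf-FLAG peaks, 57.8% fell under the minimum.

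Leaving out each list in turn gave 2819 to 3320 sites, Drl-only shares of 74.2% to 75.4%, widths of 450 to 477 bp (in Drl-FLAG 2 where Drl-FLAG 1 was left out), 10.9% to 11.8% raised and 23.3% to 26.2% with a neighbour. Lists numbered 1 alone gave 76.4%, 454 bp, 12.04% raised and 26.1% with a neighbour, and lists numbered 2 alone 76.6%, 451.5 bp, 12.4% and 27.0%. Chosen after seeing the data, sites at the genome-wide control background gave 79.4% and 18.3% with a neighbour among themselves, and sites whose scaled fragments reached the median Blf-FLAG peak gave 254 sites, 40.0%, 589 bp, 47.6% raised and 10.2%. Joining peaks up to 100 bp apart and margins of 0.5 or 2 Mb moved none of the 5 results tried. Neighbours were counted only among the sites kept, so settings that kept fewer sites also left fewer neighbours to count. Leaving out a list asks less of a site and by itself lets in more of them. Other causes were not tested. No paired analysis was possible because each factor's pair of lists stands for 1 sample, so that samples could not be tested against each other. Gene position and motif alternatives were not run. Blf-FLAG lists were shallower than Drl-FLAG lists, and the part of depth in the absence of Blf-FLAG peaks was not tested.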
